A study of Mus musculus with 4 samples.

Results

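The WT-only peaks are the rows of the m6A peak list of Mettl3fl/fl macrophages that overlap no row of the peak list of LysM-cre, Mettl3fl/fl macrophages by 1 bp or more on the same chromosome and strand. There were 9798 of them, 26.8% of the 36507 WT peaks (95% interval 26.4 to 27.3), in a series of 75204 peaks over both lists. The members were chosen by which peaks the authors called in each list, so the share is the outcome of the rule and nothing is read from it. The other 26709 WT peaks had a cKO partner, and 11118 of 38697 cKO peaks had no WT partner.

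The libraries come from bone-marrow-derived macrophages of C57BL/6 mice, grown for 7 days in M-CSF, a macrophage growth factor, and then kept for 24 h with the mouse colon carcinoma line MC38. The cKO cells carried floxed Mettl3 together with LysM-cre, a Cre recombinase expressed from the lysozyme M promoter, and the WT cells carried the floxed alleles without Cre. Each genotype had 1 IP library, of RNA fragments pulled down with an antibody to m6A, and 1 input library of the same fragments without pulldown, so there are no replicates. The cKO is limited to cells in which the lysozyme M promoter is active, and the MC38 cells keep Mettl3. All differences below are between single libraries, with no spread between cultures known.

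N6-methyladenosine (m6A) is written into messenger RNA by a complex in which METTL3 is the catalytic subunit, bound to METTL14 and WTAP. The mark sits mostly in a short consensus with GGACT as its best known form, and it is densest near stop codons, in 3' UTRs and in long internal exons. Proteins that read it act on splicing, translation and decay of the mRNA. In m6A sequencing a peak is a stretch with more IP than input reads, here given as the log2 of IP over input by the authors.

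The following stretches of 30 bases hold the GGACT motif, in capitals, in WT-only peaks that the results below turn on. They are shown because they lie in the strongest WT-only peak of a gene that keeps other cKO peaks (Fbln2, Socs1, Kdm5b), in genes with no cKO peak (both Ppp1cc stretches, Kcnk12), in the targeted gene (Mettl3) or in a regulator of NF-kB (Tnfaip3). They were read from GENCODE M21 transcripts on mm10 (GRCm38), 5′ to 3′ on the transcript's strand.
Fbln2, 5' UTR, chr6:91212640-91212669, plus strand: gagtggaaagagGGACTcagagacccggac
Socs1, 3' UTR, chr16:10783465-10783494, minus strand: cagaccattcctGGACTggagaggtgggcc
Kdm5b, 3' UTR, chr1:134634574-134634603, plus strand: taaaagtcccgtGGACTctattatctccca
Ppp1cc, peak over its first exons, chr5:122168215-122168244, plus strand: gaacgagatccgaGGACTctgcctgaagtc
Ppp1cc, 3' UTR, chr5:122174157-122174186, plus strand: actgcctggttgGGACTtgtaacatagcgt
Kcnk12, 5' UTR, chr17:87797833-87797862, minus strand: tcctaggcgtccGGACTctacggttcaccc
Mettl3, 5' UTR, chr14:52304926-52304955, minus strand: taagaaacagctGGACTcgcttcgcgagag
Tnfaip3, 3' UTR, chr10:19000965-19000994, minus strand: tctatcttttttGGACTtcagattgtttta

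The Kcnk12 peak held 4 copies of the motif and the Mettl3 peak 2, and each of the others shown held 1. Most WT-only peaks held none, since GGACT was present in 19.6% of those that could be placed on annotated exons (18.8 to 20.4).

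The targeted gene was examined first. Mettl3 had 1 WT-only peak, in its 5' UTR (chr14:52304753-52305102, minus strand, mm10), at a log2 IP over input of 1.33. Its other WT peak, in the 3' UTR at 1.37, overlapped cKO peaks at 1.45 and 0.86. The cKO list also held an exonic Mettl3 peak at 1.80 and an intronic one at 1.30. The position of the deleted part is not given in the sources used here and no input level of Mettl3 was analysed here, so these peaks do not check the deletion. The macrophage label was checked against input levels in FPKM (fragments scaled to length and library size). Cd68 stood at 634 FPKM in the cKO input and 695 FPKM in the WT input, and Adgre1 at 162 FPKM in the cKO and 220 FPKM in the WT. Itgam stood at 188 FPKM in the cKO and 179 FPKM in the WT, and Trem2 at 27.2 FPKM in the cKO and 25.1 FPKM in the WT. Of 14 macrophage markers with an input value 4 were higher in the cKO. Lyz2, the gene whose promoter drives the Cre, stood at 1980 FPKM in the cKO and 3393 FPKM in the WT.

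WT-only peaks lay less in 3' UTRs and more in coding exons and introns than the WT peaks with a partner. In the authors' annotation 37.7% of WT-only peaks were in 3' UTRs (36.8 to 38.7), against 63.0% of WT peaks with a partner (62.4 to 63.5). Other exonic sequence, mostly coding, held 34.9% of WT-only peaks (34.0 to 35.9) and 18.5% of partnered peaks. Introns held 9.51% of WT-only peaks (8.94 to 10.1) and 2.77% of partnered peaks (2.57 to 2.97). The 5' UTR shares were close, at 9.47% of WT-only peaks and 8.89% of partnered peaks, and noncoding exons held 8.09% and 6.66%. The intervals in parentheses after shares are 95% Clopper-Pearson intervals (exact) and reflect counting error alone.

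The cKO-only peaks had 39.1% in 3' UTRs, 31.8% in other exonic sequence and 10.9% in introns. Counted the other way, 18.02% of the WT peaks in 3' UTRs were WT-only, against 41.0% of those in other exonic sequence and 55.8% of those in introns. The shares of cKO peaks that were cKO-only in the same regions were 20.2%, 40.3% and 60.7%.

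**Figure D1:**
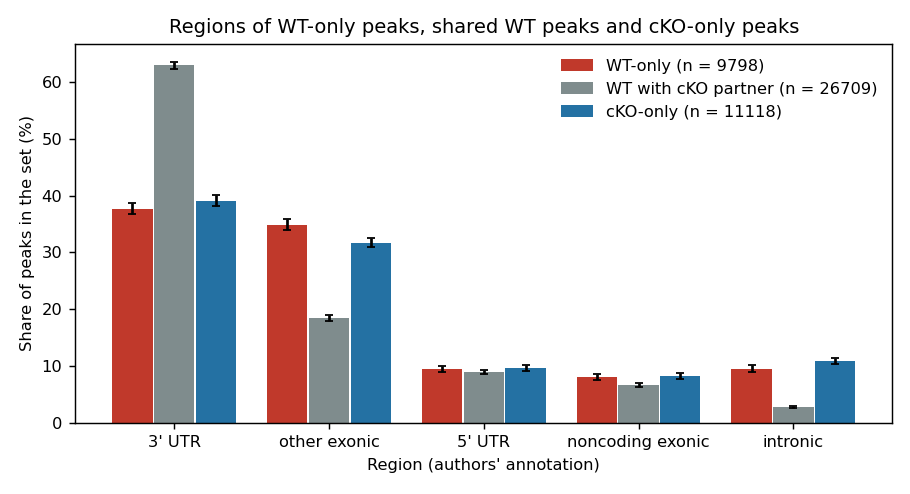
Share of peaks in each annotated region, in percent, for WT-only peaks, WT peaks with a cKO partner and cKO-only peaks; bars start at 0 and error bars are exact 95% intervals. WT-only and cKO-only peaks sit at 37.7% and 39.1% in 3' UTRs, both below the 63.0% of partnered WT peaks.

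WT-only peaks were short and weak. Their median span between outer ends was 325 bp (quartiles 150 and 1381), against 750 bp in WT peaks with a partner (329 and 3406), and cKO-only peaks also had a median of 325 bp. Counted over exons only, the median length was 175 bp in WT-only peaks, 375 bp in partnered WT peaks and 175 bp in cKO-only peaks. A longer peak meets a partner more easily, so the rule itself bears on length. Of WT peaks with 100 to under 200 exonic bases 48.7% were WT-only, of those with 400 to under 800 bases 11.2%, and of those with 1600 bases or more 1 of 1856.

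Spans over 5000 bp, which run across introns, were found in 11.1% of WT-only peaks and 19.3% of partnered peaks. Among the widest, a WT-only peak in Chsy3 on chromosome 18 spanned 227237 bp but covered 309 exonic bases, and one in Plxdc2 on chromosome 2 spanned 208239 bp and covered 500.

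**Figure D2:**
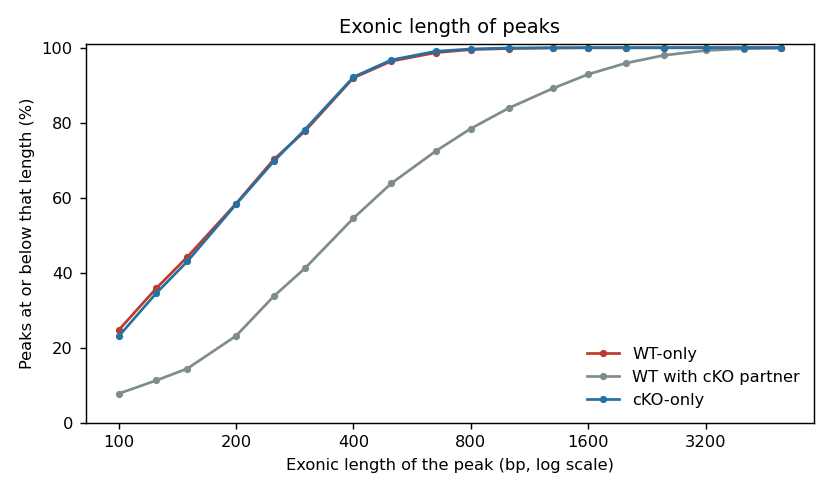
Cumulative share of peaks, in percent, at or below an exonic length in bp (log scale), for WT-only peaks, WT peaks with a cKO partner and cKO-only peaks. The WT-only and cKO-only curves run together with medians of 175 bp each, left of the partnered WT peaks with a median of 375 bp.

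The enrichment, which decided whether a peak was called and so belongs to the rule, is given as a description. The median log2 IP over input was 0.95 in WT-only peaks (quartiles 0.73 and 1.41), 1.31 in WT peaks with a partner (0.93 and 1.98) and 0.99 in cKO-only peaks (0.77 and 1.46). A log2 of at least 2 was reached by 12.5% of WT-only peaks and 24.5% of partnered peaks. The authors' peak list gave an adjusted p below 1e-05 to 11.1% of WT-only peaks and 65.0% of partnered WT peaks. With all WT peaks ranked on log2 and cut into 5 equal bins, 45.3% were WT-only in the weakest bin and 15.8% in the strongest. Within the 8424 WT-only peaks of genes that also had a shared WT peak, 87.7% were weaker than the gene's strongest shared peak, by a median of 0.81 on the log2 scale.

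WT-only peaks differed little from others of their length in the motif. GGACT was read on the transcript strand of the exonic part of each peak, without the other strand. It was present in 19.6% of WT-only peaks, 40.5% of partnered WT peaks (39.9 to 41.1) and 18.7% of cKO-only peaks (17.9 to 19.4). At 200 to under 400 exonic bases the shares were 26.5% in WT-only peaks (25.0 to 28.1) and 25.4% in partnered peaks (24.5 to 26.4), and at 400 to under 800 bases they were 42.4% (39.0 to 45.8) and 48.0% (46.8 to 49.2). Weighted to the lengths of the WT-only peaks with at least 100 exonic bases, 21.5% of WT-only peaks held GGACT, against 22.7% of partnered peaks. GGACT or a relative of it (the other core forms searched were GGACA and GGACC as well as GAACT) was held by 60.6% of WT-only peaks and 60.5% of partnered peaks at the same lengths. Copies of GGACT per kb of exonic sequence were 1.08 in WT-only peaks, 1.24 in partnered WT peaks and 1.01 in cKO-only peaks.

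**Figure D3:**
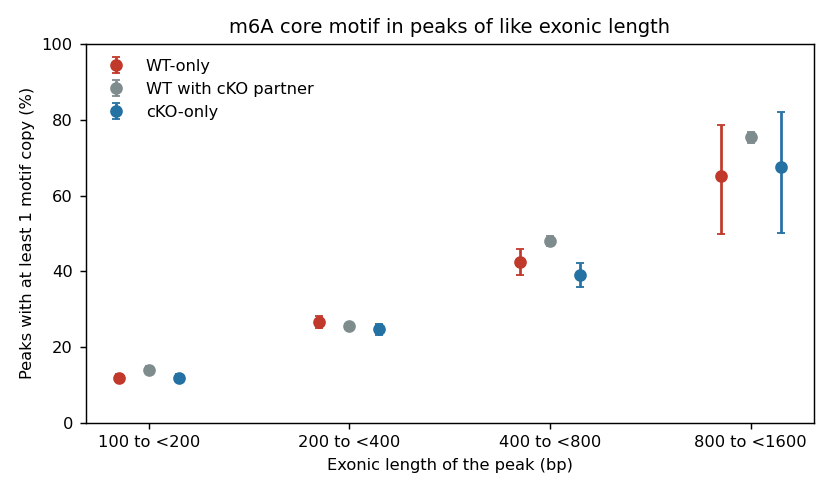
Share of peaks, in percent, with at least 1 copy of the GGACT motif, by exonic length in bp, for WT-only peaks, WT peaks with a cKO partner and cKO-only peaks; error bars are exact 95% intervals. At 200 to under 400 bp the shares lie at 26.5%, 25.4% and 24.6%, and at 400 to under 800 bp the WT-only share of 42.4% lies below the partnered 48.0%.

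Position in the transcript set the WT-only peaks apart more than the motif did. An annotated stop codon lay in 4.56% of the WT-only peaks of coding transcripts (4.11 to 5.05) and in 24.8% of partnered WT peaks (24.3 to 25.4). At matched exonic length the shares were 4.99% in WT-only and 10.4% in partnered peaks, and cKO-only peaks of those lengths held a stop codon in 4.84%. The share in 3' UTRs at matched length was 44.4% in WT-only and 60.4% in partnered peaks. Within 3' UTRs the midpoint of a WT-only peak lay a median of 956 nt from the stop codon, against 496.5 nt for partnered peaks and 1080 nt for cKO-only peaks. Among peaks in other exonic sequence 9.18% of WT-only peaks lay in an exon of 1000 bp or more (8.23 to 10.2), against 19.8% of partnered peaks and 6.55% of cKO-only peaks (5.75 to 7.42).

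Many WT-only peaks lay close to a cKO peak they did not overlap. The gap to the nearest cKO peak on the strand was at most 25 bp for 696 peaks (7.10%), at most 500 bp for 3717 (37.9%) and over 1000 bp for 4943 (50.4%), with a median of 1044.5 bp. At the edge of the rule, the 696 peaks just inside had a median log2 of 0.85, and the 296 partnered WT peaks that overlapped a cKO peak by at most 25 bp had 0.85 too.

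By gene, WT-only peaks fell into 6226 genes, and 19 peaks carried no gene. The larger class, 5134 genes with 8423 WT-only peaks, kept at least 1 WT peak with a cKO partner. In 308 genes with 432 WT-only peaks the cKO peaks lay elsewhere in the gene. In 784 genes with 924 WT-only peaks (9.43%, 8.86 to 10.03) the cKO list held no peak at all. In all, 810 of 13832 genes with WT peaks had no cKO peak, 5.86%. The rule used that contrast, so nothing is read from the count. The other direction gave similar numbers, with 971 genes that had cKO peaks and no WT peak, and 1136 of the cKO-only peaks (10.2%) lay in such genes.

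Of the 5442 genes with a WT-only peak and any cKO peak, 90.7% had a cKO peak in the 3' UTR, shared or cKO-only, against 81.7% of all 13993 genes with cKO peaks. The share was 76.0% in the 8551 genes with cKO peaks and no WT-only peak. Where a WT-only peak lay in other exonic sequence, the same gene had a cKO 3' UTR peak in 95.8% of 3265 cases and a cKO peak in other exonic sequence in 65.2%. For the 886 WT-only peaks in 5' UTRs, a cKO peak in the 5' UTR was present in 22.7%, and for the 921 in introns an intronic cKO peak in 45.7%. These shares by region count peaks, so genes with many peaks weigh more. They were not set beside the shares over all genes with cKO peaks, so nothing is read from them. The genes of the 365 WT-only peaks in noncoding exons all had a noncoding exonic cKO peak and none in a 3' UTR. A noncoding transcript has no 3' UTR, so these counts follow largely from the annotation and nothing is read from them. Of the 5442 genes, 59.6% (58.3 to 60.9) also had a cKO-only peak. Of the 7580 genes with cKO peaks whose every WT peak had a partner, 33.6% (32.6 to 34.7) had one. These groups also differed in peak number, with a mean of 3.98 WT peaks per gene in the first and 1.83 in the second. Their means of cKO peaks per gene were 3.56 and 2.39. The part of peak number in this difference and in the 3' UTR shares above was not tested.

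The 10 strongest WT-only peaks of genes that keep cKO peaks and have a mean input of at least 5 FPKM are named here. Input was held only for genes with a listed differential peak, so genes without a value, such as Socs1 with a peak at 5.12, are left out. No region pattern is read from 10 peaks. Of all 485 WT-only peaks with a log2 of 3 or more, 36.9% lay in 3' UTRs, against 37.7% of all WT-only peaks. Fbln2, which encodes the extracellular matrix protein fibulin-2, had a WT-only peak at a log2 of 8.81 in its 5' UTR (chr6:91212455-91212829). Its exonic and 3' UTR peaks stood in both lists, at 1.02 and 1.40 in the cKO and 0.99 and 1.20 in the WT. The authors' peak list gave the Fbln2 5' UTR peak an adjusted p of 1.96e-05. It gave the weaker shared WT peaks of that gene 3.22e-72 and 7.36e-73. Ywhaz, a 14-3-3 adaptor protein, had WT-only 5' UTR peaks at 5.05 and 1.11 (chr15, minus strand). In the authors' deposited table a listed peak there had a log2 of -0.14 in the cKO and 5.02 in the WT, a difference of -5.16 with an adjusted p of 0.0207. The Ywhaz 3' UTR peak was shared, at 0.72 to 1.40 in 3 cKO peaks and 1.11 in the WT. Input levels of Fbln2 were 24.1 FPKM in the cKO and 20.5 FPKM in the WT, and those of Ywhaz 46.5 and 61.9.

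Itgav, the integrin alpha V chain, had 3 WT-only intronic peaks in a row, at 3.14, 3.54 and 4.96, beside a cKO-only intronic peak at 1.61 that started 100 bp after the last. In its 3' UTR 2 WT peaks were shared and 1, at 0.61, was WT-only. Pgs1, an enzyme of mitochondrial phospholipid synthesis, had a 5' UTR peak at 4.92, and Prmt1, an arginine methyltransferase, at 4.07. For Prmt1 the cKO list held 1 peak, in other exonic sequence, at 0.65. Oas1a, an interferon-induced oligoadenylate synthetase, had a 3' UTR peak at 3.99 within 175 bp of a cKO peak at 0.66. Setd1a, a histone methyltransferase, had a 5' UTR peak at 3.89, 75 bp from a cKO peak, and 4 cKO peaks at 0.91 to 1.63 stayed in that gene. Zfand3 (intronic, 4.72), the mRNA-binding protein gene Serbp1 (3' UTR, 3.70) and Tm9sf2 (intronic, 3.61) completed the 10 highest. Of these 10 peaks 5 lay in 5' UTRs, 3 in introns and 2 in 3' UTRs, and 3 overlapped a peak in the authors' deposited table of differential peaks, each lower in the cKO. Their adjusted p in the authors' peak list ran from 3.41e-08 (Tm9sf2) to 1.42e-03 (Zfand3), against a median of 6.16e-10 in partnered WT peaks.

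The 5 genes with the most WT-only peaks had 9 to 11 each. Macf1, a microtubule-actin linker, and Syne2, a linker of nucleus and cytoskeleton, had 11 of 21 and 11 of 25 WT peaks without a partner, and Utrn, which encodes utrophin, 11 of 18. Kif1b, a kinesin motor gene, had 9 of 15 and Abhd18 9 of 14. The 11 Macf1 peaks ranged from 0.56 to 1.58 on the log2 scale and 10 of them lay in other exonic sequence. The 11 Syne2 peaks ranged from 0.65 to 1.77, with 10 in other exonic sequence. Input levels were 7.14 FPKM in the cKO and 7.61 FPKM in the WT for Macf1, 1.25 and 1.65 for Syne2 and 3.72 and 3.63 for Utrn. Across genes the share of WT peaks that were WT-only was 18.2% in genes with 1 WT peak and 37.6% in genes with 11 or more.

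The WT-only peaks of genes with no cKO peak differed from the other WT-only peaks in region, gene type and enrichment. Of the 924, 46.3% lay in noncoding exons (43.1 to 49.6), against 4.12% of the 8855 WT-only peaks in genes with other cKO peaks (3.72 to 4.56). Another 30.8% lay in 3' UTRs (27.9 to 33.9), against 38.5%. Protein-coding genes made up 390 of the 784 genes (49.7%), and 382 (48.7%) had only a serial name (Gm number or Rik). Over all 6226 genes with a WT-only peak these shares were 88.8% and 11.3%. They were not compared at equal numbers of WT peaks per gene. Their median log2 was 1.86 (quartiles 1.24 and 2.99), against 0.90 (0.71 and 1.33) in genes with other cKO peaks. Of the WT-only peaks with a log2 of 3 or more, 46.8% lay in genes with no cKO peak. A stop codon was present in 19.8% of the WT-only peaks of coding transcripts in genes with no cKO peak (16.3 to 23.6). The share was 3.57% in genes with other cKO peaks, and 24.8% in partnered WT peaks. The median exonic lengths in that order were 250, 175 and 375 bp. These stop codon shares were not compared at equal exonic length or at equal numbers of WT peaks per gene.

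**Figure D4:**
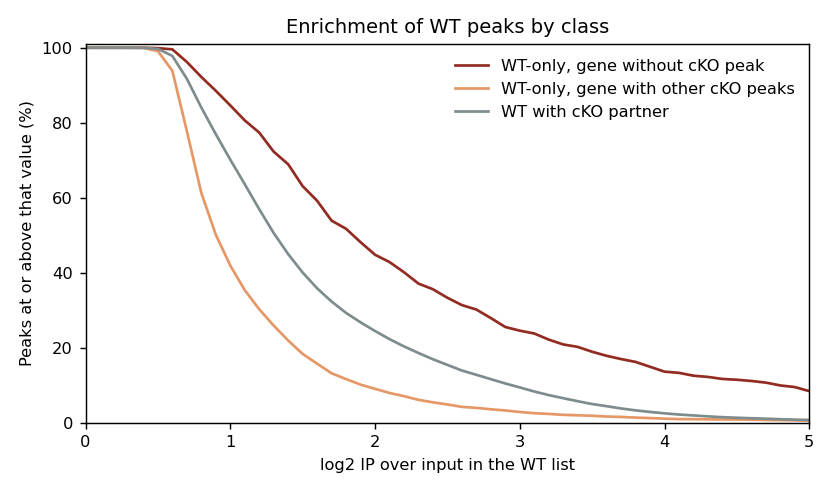
Share of peaks, in percent, at or above a log2 of IP over input in the WT list, drawn from 0 to 5, for WT-only peaks of genes without a cKO peak, WT-only peaks of genes with other cKO peaks and WT peaks with a cKO partner. The medians are 1.86, 0.90 and 1.31, so that the classes of WT-only peaks lie on either side of the partnered peaks.

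Most of these genes had 1 WT peak, 668 of the 784. The share of genes without a cKO peak was 14.1% among genes with 1 WT peak, 2.96% with 2, 0.813% with 3, and 0 among the 758 genes with 6 or 7. Input FPKM was held only for the 111 of the 784 with a listed differential peak, with a median of 0.318 FPKM in the cKO and 0.307 FPKM in the WT. For 3283 genes with other cKO peaks the medians were 3.78 and 3.88. The 5 strongest peaks of named genes in this class were in Kcnk12, a potassium channel gene, at 8.93, Inka2 at 8.52, Bhlha9 at 8.31, Syna at 8.13 and Adra2a, an adrenergic receptor gene, at 8.06. They were chosen after their values were seen. The authors' deposited table gave Kcnk12, Inka2 and Syna a cKO log2 of 2.70, 2.36 and 2.89. Their WT log2 there was 8.88, 8.45 and 8.02, and the adjusted p of the difference 0.0435, 0.0686 and 0.131. Although no cKO peak was called, these cKO values exceeded the median log2 of 1.41 in cKO peaks with a WT partner. Bhlha9 and Adra2a had no listed differential peak. Kcnk12 had an input of 0.106 FPKM in the cKO and was listed at 0 in the WT, and Inka2 had 0.0232 FPKM in the cKO and 0.0140 FPKM in the WT.

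Ppp1cc, a catalytic subunit of a serine/threonine phosphatase, stood apart with 5 WT peaks and no cKO peak at a substantial input level of 36.9 FPKM in the cKO and 34.6 FPKM in the WT. Its peaks lay over the first exons (chr5:122158378-122168244, log2 0.99), in an intron (1.41), in other exonic sequence (0.48) and at 2 places of the 3' UTR (0.64 and 1.67), all on the plus strand. The nearest cKO peak was 65361 bp away. The stronger 3' UTR peak had a log2 of -0.41 in the cKO and 1.74 in the WT in the authors' deposited table, a difference of -2.15 with an adjusted p of 4.04e-33. The peak over the first exons had 0.49 in the cKO and 1.44 in the WT in the authors' deposited table, a difference of -0.96 with an adjusted p of 9.75e-10. Ppp1ccb, a copy on chromosome 7, had 1 cKO peak at 1.61 and no WT peak, with an input of 5.05 FPKM in the cKO and 13.9 FPKM in the WT. Reads of such copies may be shared between the loci and the counting is not stated, so the gene of these peaks is uncertain.

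The same limit holds for 3 others of the best expressed genes without a cKO peak. Rpl15-ps6, a ribosomal protein pseudogene, had 1 WT peak at 0.84 and an input of 97.4 FPKM in the cKO and 48.6 FPKM in the WT, while the parent Rpl15 had 3 cKO peaks at 1.29 to 1.42 and 3 WT peaks at 0.72 to 1.13. Pisd-ps1 had 2 WT peaks at 0.71 and 0.74, and Pisd 4 cKO and 3 WT peaks. Csnk2a3 had 2 WT peaks at 0.68 and 1.21, and its relative Csnk2a1 3 cKO and 4 WT peaks. Mgst3, a microsomal glutathione transferase gene, had 1 WT peak at 0.67 in its 3' UTR, with an input of 8.64 FPKM in the cKO and 6.93 FPKM in the WT.

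Further genes without a cKO peak came from the gene lists or had 3 or 4 WT peaks. Cxcl10 and Cxcl9, interferon-induced chemokines that attract T cells, had 1 WT peak at 1.97 (3' UTR, chr5:92346638-92347162) and 2 at 0.89 and 1.09, and no cKO peak. Their input was not analysed here. Vsig4, a complement receptor of macrophages, had 4 WT peaks at 0.68 to 0.76 and an input of 0.262 FPKM in the cKO and 2.33 FPKM in the WT. All 4 were near the calling threshold, with an adjusted p of 0.0417 to 0.0535 in the authors' peak list. Prf1, the pore-forming perforin of cytotoxic lymphocytes, had 3 WT peaks at 2.99, 3.87 and 4.13, of which the last, in other exonic sequence, held 5 copies of GGACT. Tnfrsf13c, the BAFF receptor of B cells, had 4 in its 3' UTR at 1.56 to 2.73. Prune2, Tmem246, Kcng2, Stxbp6, Shroom4 and Masp1 had 3 WT peaks each, the strongest at 7.55 in Prune2 and 5.12 in Tmem246. The epithelial mucin gene Muc1 had a peak at 1.46. Of 15 epithelial markers it alone had a WT peak and no cKO peak, and 7 had cKO peaks. That list held 10 WT and 12 cKO peaks, 6 of the latter cKO-only. Kit and Cpa3, markers of mast cells and progenitors, had 1 and 2 WT peaks and no cKO peak. The neutrophil chemokine receptor gene Cxcr2 had 2 WT peaks, at 2.72 and 3.14, and no cKO peak. Of 13 neutrophil markers 6 had a cKO peak, and that list held 11 WT and 6 cKO peaks. Listed lymphoid markers held 6 WT and 9 cKO peaks. None of the 12 erythroid and mast cell markers had an input value here, and neutrophil markers summed to 72.1 FPKM in the cKO and 61.9 FPKM in the WT over 4 of 13. In bulk libraries fewer cells of a type and less RNA per cell cannot be told apart.

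The WT-only peaks with the lowest adjusted p, singled out after their values were seen, ranged widely in fold. Il1a, which encodes the cytokine IL-1 alpha, had 4 WT peaks and 1 cKO peak. Its WT-only 3' UTR peak (chr2:129300385-129300884) had a log2 of 0.68 and an adjusted p of 1.47e-252 in the authors' peak list. A listed differential peak there had 0.47 in the cKO and 0.70 in the WT in the authors' deposited table, a difference of -0.23. The Il1a input was 344 FPKM in the cKO and 513 FPKM in the WT. Cybb, the membrane subunit of the phagocyte oxidase, had a WT-only 3' UTR peak at 0.58, 25 bp from a cKO peak, and Tapbp, the tapasin of peptide loading, an exonic one at 0.68. Cd9, a tetraspanin gene, had a single 3' UTR peak at 0.74 and no cKO peak. Heph, a copper-dependent ferroxidase gene with no cKO peak, stood higher, with an intronic peak at 3.60 and an adjusted p of 1.33e-103 in the authors' peak list, and the pseudogene Rps27a-ps2 at 1.16. The 1090 WT-only peaks with an adjusted p below 1e-05 had a median log2 of 0.80, against 0.97 in the other 8708.

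The authors' deposited table of differential peaks covers few WT-only peaks. It listed a peak over 1117 of the 9798 (11.4%, 10.8 to 12.05), against 29.1% of partnered WT peaks, and 24.4% of all WT peaks overlapped a listed peak. Of the 1117, 1087 were lower in the cKO and 30 higher, against 14.5% and 9.86% of all WT peaks listed lower and higher. The medians in the authors' deposited table were 0.07 in the cKO and 1.64 in the WT, with a median difference of -1.78. At an adjusted p below 0.05 the authors' deposited table held 434 lower and 4 higher, against 8.32% of all WT peaks listed lower. The rule used that contrast, so the direction is no finding. For 8681 WT-only peaks (88.6%), whose median log2 was 0.91, no differential peak was listed.

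Input levels differed little between the genotypes in most genes with a value. The input also enters the peak calls, so it is not independent of the rule, and these values are a description. Among 2791 genes with a WT-only peak and a mean input FPKM of at least 1, the median difference in log2(FPKM + 1), cKO minus WT, was -0.02 (quartiles -0.14 and 0.10), against -0.02 over all 6079 such genes. A change of at least 2-fold on that scale was found in 17 of the 2791 (0.609%), 8 higher and 9 lower in the cKO, against 0.839% of all genes (0.411% higher and 0.428% lower). Of the 30 genes without a cKO peak 4 passed it, 2 higher and 2 lower, with a median difference of 0.08. At a mean FPKM of at least 5 the median difference was 0.26, and each of the 9 such genes stood above its WT level in the cKO. Among these 9 are Rpl15-ps6, Pisd-ps1, Ppp1cc and Csnk2a3, whose reads may be shared with copies, so their levels are uncertain. Genes with a WT-only peak had a median input of 4.76 FPKM in the cKO and 4.88 FPKM in the WT, and genes whose WT peaks all had a partner 9.004 and 9.05. Values were held only for genes with a listed differential peak, 3394 of the 6226, and the scale understates changes of low genes.

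Regulators of the JAK-STAT pathway, which carries cytokine signals from receptors through JAK kinases to STAT factors and is damped by the SOCS proteins, held both kinds of peak. Of 74 WT peaks in 25 JAK-STAT genes 17 were WT-only (23.0%, 14.0 to 34.2), with a median log2 of 0.79. Of 86 cKO peaks in the same genes 23 were cKO-only (26.7%). Jak1 had a WT-only peak of 0.66 in other exonic sequence and kept its 3' UTR peak, at 2.46 in the cKO and 2.86 in the WT. It also had 2 cKO-only peaks in other exonic sequence, at 0.71 and 0.76. Stat3 (intron, 1.40) and the receptor chain gene Il6st (3 in the 3' UTR, 0.71 to 0.79) had others. The Stat3 peak had an adjusted p of 0.05001 in the authors' peak list, just above 0.05. Of 54 WT peaks in the Socs, Spred and Dusp families 10 were WT-only (18.5%). Socs1, the feedback inhibitor of JAK kinases, had 2 of 3, at 5.12 in the 3' UTR (chr16:10783365-10783564), 75 bp from a cKO peak, and 1.04 in the 5' UTR, and its shared 3' UTR peak stood at 1.61 in the cKO and 1.35 in the WT. Cish had a WT-only intronic peak at 0.73 and a cKO-only intronic peak at 0.59. Its 3' UTR peak was shared, at 2.34 in the cKO and 2.63 in the WT. Spred2 had a WT-only 5' UTR peak at 0.82. Its 3' UTR peaks were shared, at 1.86 and 0.96 in the cKO and 2.23 and 0.72 in the WT. In Socs2 and Socs3 no WT peak was without a partner.

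Among the m6A writers 8 of 37 WT peaks were WT-only (21.6%, 9.83 to 38.2), in Mettl3, Rbm15, Zc3h13 and Zcchc4. Rbm15, which brings the complex to its RNA targets, had intronic ones at 3.05 and 1.26. Zc3h13 had 2 at 0.66 and 0.86, and Zcchc4, which methylates ribosomal RNA, 3 at 0.91 to 1.62. The WT-only peaks of Zc3h13 and Zcchc4 were near the calling threshold, with an adjusted p of 0.0225 to 0.0452 in the authors' peak list. None of the 8 writer peaks overlapped a listed differential peak. Mettl14, Wtap, Virma, Rbm15b, Cbll1, Mettl16 and Mettl5 had none. Erasers and readers had 11 of 53 (20.8%), among them the eraser Alkbh5, whose 5' UTR peak of 1.11 had 0.48 in the cKO and 1.06 in the WT in the authors' deposited table, with an adjusted p of 1.47e-04.

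Lists of other gene groups had WT-only shares on both sides of the 26.8% of all WT peaks, and most intervals contain that value. Genes of mRNA decay had 31 of 91 (34.1%, 24.5 to 44.7), with 7 in the exonuclease Xrn1 and 5 each in the deadenylase Cnot6l and the RNA-binding protein gene Rc3h2. Chromatin enzymes had 52 of 194 (26.8%, 20.7 to 33.6), with the histone demethylase gene Kdm5a at 7 and Kdm5b at 4, of which the 3' UTR peak stood at 4.05. Cytokines and chemokines had 10 of 36 (27.8%) and interferon-stimulated genes 16 of 60 (26.7%). Antigen presentation genes had 11 of 50 (22%), 5 of them in Ciita, the activator of MHC class II genes. The Ciita input was low, at 0.365 FPKM in the cKO and 0.725 FPKM in the WT. Its strongest WT-only peak, at 1.42, had an adjusted p of 2.35e-05 in the authors' peak list, and the others 0.00931 to 0.0427. The shares of cKO peaks that were cKO-only were 37.5% in mRNA decay, 17.9% in chromatin enzymes and 20.6% in cytokines and chemokines. They were 38.7% in interferon-stimulated genes and 11.6% in antigen presentation genes. Over all cKO peaks 11118 of 38697 were cKO-only.

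Low shares were found for ribosomal proteins with 3 of 42 (7.14%, 1.498 to 19.5), immediate early genes with 4 of 43 (9.30%, 2.59 to 22.1), and macrophage markers with 4 of 36 (11.1%, 3.11 to 26.1). The cKO-only shares of the cKO peaks in these lists were 16.3%, 17.0% and 13.9%, also below that of all cKO peaks. Mesenchymal markers had 13 of 34 (38.2%, 22.2 to 56.4), and 39.4% of their cKO peaks were cKO-only. Their summed input over 11 of 14 was 513 FPKM in the cKO and 329 FPKM in the WT, with 9 of the 11 higher in the cKO. Macrophage markers summed to 3742 FPKM in the cKO and 5293 FPKM in the WT over 14 of 17, and without Lyz2 to 1762 FPKM in the cKO and 1900 FPKM in the WT. The part of these levels in the peak shares was not tested. Known m6A targets had 13 of 64 (20.3%, 11.3 to 32.2), among them Tnfaip3, an inhibitor of NF-kB, with a 3' UTR peak at 0.92. The cKO-only share of the cKO peaks in that list was 12.7%.

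**Figure D5:**
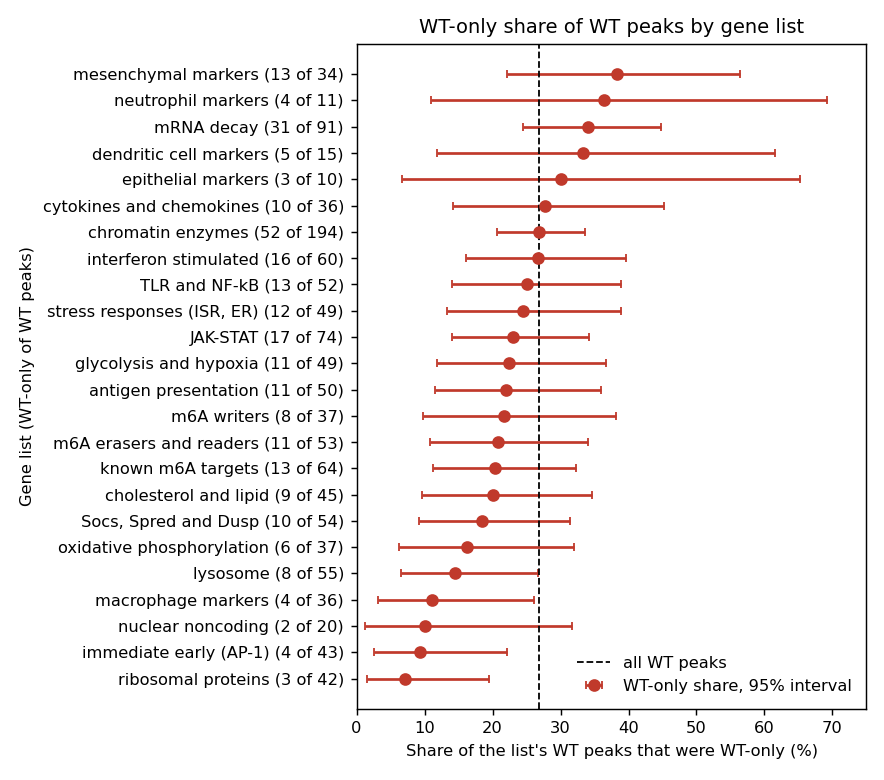
Share of a gene list's WT peaks that were WT-only, in percent, with exact 95% intervals, for lists with at least 10 WT peaks; the dashed line marks the 26.8% of all WT peaks. Ribosomal proteins (7.14%), immediate early genes (9.30%), nuclear noncoding RNAs (10%, 2 of 20) and macrophage markers (11.1%) lie lowest, and mesenchymal markers (38.2%) highest.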

How the data were processed

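Each genotype had 1 m6A IP and 1 input library. The submitters' processing notes name mm10, and as tools edgeR, StringTie, ChIPseeker, HOMER, HISAT2 and fastp, without roles or versions. The peak caller is not given in the sources used here. The deposited peak lists give, per the file headers, for each peak the log2 of IP over input with a p-value and its adjusted p-value by the authors, from 1 pair of libraries. Every listed p-value was below 0.05. The authors' deposited table of differential peaks adds the log2 in the cKO and the WT, and the deposited gene table adds the input FPKM of 7307 genes with a listed peak. The depth is unknown, since total reads were not analysed here.

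Starts count from 0: 4802 WT starts lay 1 below the annotated gene start and 0 equalled it. Positions are printed 1-based. Overlaps were computed in Python 3.11.15 with pandas 2.3.3 and tested on simulated data against bedtools 2.31.1, and intervals with scipy 1.17.1. Peaks have outer ends only, so exonic length is the span within exons of the authors' transcript in GENCODE M21, placed for 89.9% of WT-only peaks. Matched-length shares weight the second set to the exonic lengths of the first. The members and gene lists were chosen with earlier results of these data known. Named are the 10 WT-only peaks of highest log2 at a mean FPKM of at least 5 in each gene class, the 5 genes with most WT-only peaks, genes without a cKO peak of highest FPKM or most peaks, the widest peaks, up to 4 members per list, and JAK-STAT, Socs, Spred2 and m6A machinery genes. Symbols with serial names were left out, and any other gene or sequence shown (Kcnk12, Mettl3, Socs1, Kdm5b and Tnfaip3 among the sequences) was chosen after its values were seen. Some results that these rules would name are not reported here. Alternatives were the overlap, strand, distance and thresholds of the rule, the motif, the pseudocount and the FPKM minimum.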

Additional observations from a re-analysis of the deposited data

How the results depend on the processing

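No paired analysis was possible because each group has 1 library. The number of WT-only peaks, 9798 (26.8% of WT peaks), depended on the definition of a partner and on thresholds. It was 18679 (51.2%) when only an overlap of at least 50% of each peak made a partner and 6158 (16.9%) when a cKO peak within 500 bp counted. The share was 30.4% with overlap between exonic blocks and 25.7% on either strand. With WT peaks of log2 at least 1 there were 4509 (19.4%). Settings with an adjusted p below 1e-05 were chosen after seeing the data: 1090 (5.91%) with the threshold on WT peaks, and 2610 (14.1%) with it on both lists, where a weaker cKO peak was no partner. With 50% of both peaks, 45.9% lay in 3' UTRs, 31.1% in other exonic sequence and 7.08% in introns, the median span was 400 bp and the exonic length 225 bp, 5.08% lay in genes with no cKO peak and 27.3% held GGACT. With the threshold on both lists these values were 45.9%, 30.1%, 2.99%, 725 bp, 382.5 bp, 4.37% and 35.1%. Exonic blocks gave 33.3% in other exonic sequence, 10.6% in introns and 8.54% in genes with no cKO peak. Any of 4 core motifs was held by 55.8%, and the full consensus by 90.4%. WT-only peaks overlapping a differential peak numbered 4.47% at an adjusted p below 0.05, of which 99.1% were lower in the cKO, and 0.847% at identical positions, of which 92.8% were lower. At a mean FPKM of at least 5 the input difference of genes with no cKO peak was 0.26, over 9 genes. Another 27 shares and medians stayed within their interval, and 5 further counts (9393 to 11105) within 1.5 times the count. In all 10 alternative definitions the WT-only share in 3' UTRs (30.4% to 45.9%) stayed below that of partnered WT peaks (61.4% to 71.9%). Without replicates or total reads, a weak peak that fell below the calling threshold in 1 genotype cannot be told apart from a lost one. The scaling of IP to input is unknown, and intronic peaks had no sequence here.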

Other observations

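The 30 WT-only peaks that overlap a peak listed as higher in the cKO go against the name of the set, and their values in the authors' deposited table were as follows. Dnpep (5' UTR) had 7.05 in the cKO and 0.99 in the WT, Ppil4 (3' UTR) 6.48 and 0.52, and Gclm, a subunit gene of glutathione synthesis, 6.59 and 1.23 in the authors' deposited table. Of the 30, 4 had an adjusted p under 0.05 by the authors' deposited values, and they lay in Dnpep, Ppil4, Kif26b and Wwp2. The Kif26b peak had 4.98 in the cKO and 2.71 in the WT, and the Wwp2 peak 1.68 and 1.05, in the authors' deposited table, and both listed peaks also overlapped a partnered WT peak of the gene. Vsig4 had 4 WT-only peaks, of which 2 in the 3' UTR were listed higher, with differences of 2.95 and 1.95, and 1 in other exonic sequence lower, with -4.98, in the authors' deposited table, at an input of 0.262 FPKM in the cKO and 2.33 FPKM in the WT. The 4 peaks had an adjusted p of 0.0417 to 0.0535 in the authors' peak list.

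WT-only peaks were spread over the chromosomes, with shares of the WT peaks between 24.6% on chromosome 11 and 29.6% on chromosome 5. Chromosome X had 28.0%. Of 7 mitochondrial WT peaks 4 were WT-only.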
